A study of Homo sapiens with 49 samples.

Results

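Of the 49 arrays of this dose series, 25 were used here, in a contrast that leaves the vehicle out. The 12 arrays of Ishikawa cells given ethinyl estradiol (EE) at 100 pM (6 arrays) or 1000 pM (6 arrays) form the high pool. The 13 arrays of cells given EE at 0.1 pM (6 arrays) or 0.3 pM (7 arrays) form the low pool. Arrays were assigned to the pools by the concentration in their labels. The comparison itself was chosen with earlier results of these data known. Ishikawa is a cell line from a human endometrial adenocarcinoma that keeps an epithelial form and the estrogen receptor. EE is the synthetic estrogen of oral contraceptives. Every group was treated for 72 h in medium with the same share of the solvent ethanol, after a period in medium with the CSS serum supplement and no phenol red. Total RNA went onto Affymetrix HT HG-U133 Plus PM arrays, 1 per sample, and the levels are the deposited log2 values. The labels do not say whether replicates came from separate cultures, so the p-values reflect only how far these samples scatter, which may be technical in part or whole.

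Estrogens bind the nuclear receptor ESR1, which then attaches to estrogen response elements in chromatin, or to other transcription factors such as AP-1, and recruits coregulators. In endometrial epithelium the response includes induction of the progesterone receptor and of secretory and growth-factor genes, and over days it extends to genes of growth, adhesion and the cytoskeleton that need not be bound by the receptor. The contrast of pooled groups addresses how far such programmes were shifted, since 12 arrays against 13 resolve smaller differences than 6 against 6.

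Among the 25 arrays, 2 stood apart. In 0.3 pM replicate 2 and 1000 pM replicate 6, the beta-actin probe set at the 3' end exceeded that at the 5' end by 3.26 and 2.67 on the log2 scale, a sign of 3' bias in the labelled RNA. The other 11 high arrays spanned 1.05 to 1.78 and the other 12 low arrays 0.80 to 1.71. Gene levels of these 2 arrays scattered around their group means with SDs of 0.396 and 0.284, against 0.101 to 0.162 elsewhere. Counts are therefore given with and without them. Of 325 genes that are named or were called as list members, 322 kept their call status without the 2 arrays, and all 325 with the beta-actin difference as a covariate. All 12 markers of endometrial epithelium were measured in the cells, including EPCAM, KRT8, PAX8 and ESR1. All 8 endothelial markers and the 11 immune markers on the array lay on every array at or under a log2 value of 4, the floor below which a level was not read as measured. So did 8 of 12 markers of stromal fibroblasts. The log2 levels of all 12 added up to 46.6 to 49.2 in the high pool and 47.2 to 49.2 in the low pool. That sum of log2 values includes the levels not read as measured, and opposite changes cancel in it. Of the 4 stromal markers measured, COL1A2 was called higher in the high pool and COL1A1 and COL3A1 lower. Of the 12 epithelial markers, 1 was called higher and 4 lower.

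The pools were named for doses that saturate the response and doses that leave it inactive, and both names were set against the data. Between 1000 and 100 pM limma called 0 of 10701 genes (0% called) at an adjusted p under 0.05, the threshold used throughout, and 408 genes (3.81%) had an unadjusted p under 0.05. Between 0.3 and 0.1 pM it called 0 (0% called), with 272 (2.54%) at the unadjusted threshold. Between the low pool and the 6 vehicle arrays it also called 0 (0% called), with 109 (1.02%) at the unadjusted threshold; that number was 444 without 0.3 pM replicate 2 and 143 when vehicle replicate 5, another array with high 3' bias, was left out as well. GREB1 averaged 5.13 ± 0.23 in the low pool (SD, n = 13) and 5.12 ± 0.14 in vehicle (SD, n = 6). PGR averaged 4.19 ± 0.41 in the low pool (SD, n = 13) and 4.02 ± 0.57 in vehicle (SD, n = 6). These counts do not show that the paired groups were alike. Of 90 genes that rose without overlap of the pools and had some array above the floor in each, 78 (86.7%) were higher at 1000 than at 100 pM. The median difference of these 90 was 0.12 on the log2 scale. Over all genes tested the share higher at 1000 pM was 50.2%. Among genes called higher, with or without overlap, it was 330 of 649 (50.8%), with a median difference of 0.003. Of 96 falls chosen like the 90 rises, 67 (69.8%) were lower at 1000 than at 100 pM. In the low pool, 34.4% of the 649 genes called higher were higher at 0.3 than at 0.1 pM, beside 49.3% of all genes tested. Of 970 genes called lower, 38.8% were lower at 0.3 pM. For the 90 rises and 96 falls without overlap these low-pool shares were 54.4% and 42.7%. These shares were not tested, and genes of the same arrays are not independent. The aminopeptidase ANPEP had the largest difference between 1000 and 100 pM among the 90 rises. Its 1000 pM mean exceeded its 100 pM mean by 0.42 (SE 0.15, limma adjusted p = 0.921), and its highest array, at 8.02, was 1000 pM replicate 6. ANO1, an example chosen after its values were seen, differed by 0.30 (SE 0.12, limma adjusted p = 0.921). Its lowest 1000 pM array, at 7.72, lay above its highest 100 pM array, at 7.62.

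Against the low pool, the high pool differed in 1628 of 10701 genes (15.2% called), of which 657 were higher (6.14%) and 971 lower (9.07%). Most of these changes were small. Of the genes called, 1454 (89.3%) changed by under 1.5-fold, while 58 changed at least 2-fold. The median called rise was 1.17-fold and the median called fall 1.19-fold. Large fitted changes ran upward: 49 of the 58 genes past 2-fold rose, and all 15 past 4-fold did. These counts take each fold as fitted, also for the 9 genes whose arrays of 1 pool all lay at or under the floor. EGR3 and NPPC, measured through the high pool alone, were counted past 4-fold. Their levels give bounds of only at least 2.83-fold and at least 2.37-fold. Under 1.5-fold lay 562 of the 657 rises and 892 of the 971 falls. In 195 of the called genes (1.82% of those tested) the lowest array of one pool lay above the highest of the other, 98 of them higher (0.916%) and 97 lower (0.906%) in the high pool. Without the 2 arrays of high 3' bias 2314 genes were called (21.6%), 967 higher and 1347 lower (9.04% and 12.6%). With and without them, 1586 genes kept their call and its direction. With the beta-actin 3' minus 5' difference as a covariate over all 25 arrays, the count was 2835.

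The contrast was also made in 2 sets of arrays with none in common. At 100 against 0.1 pM limma called 854 genes (7.98% called), 346 higher and 508 lower. At 1000 against 0.3 pM it called 571 (5.34% called), 249 higher and 322 lower, and 1026 without the 2 arrays of high 3' bias. Both sets called 452 genes, which is 52.9% of the 100 against 0.1 pM calls and 79.2% of the 1000 against 0.3 pM calls, and all 452 had the same direction in each. Of the 854 genes called at 100 against 0.1 pM, 846 (99.1%) had the same sign at 1000 against 0.3 pM, where 75.2% of all genes shared a sign.

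**Figure D1:**
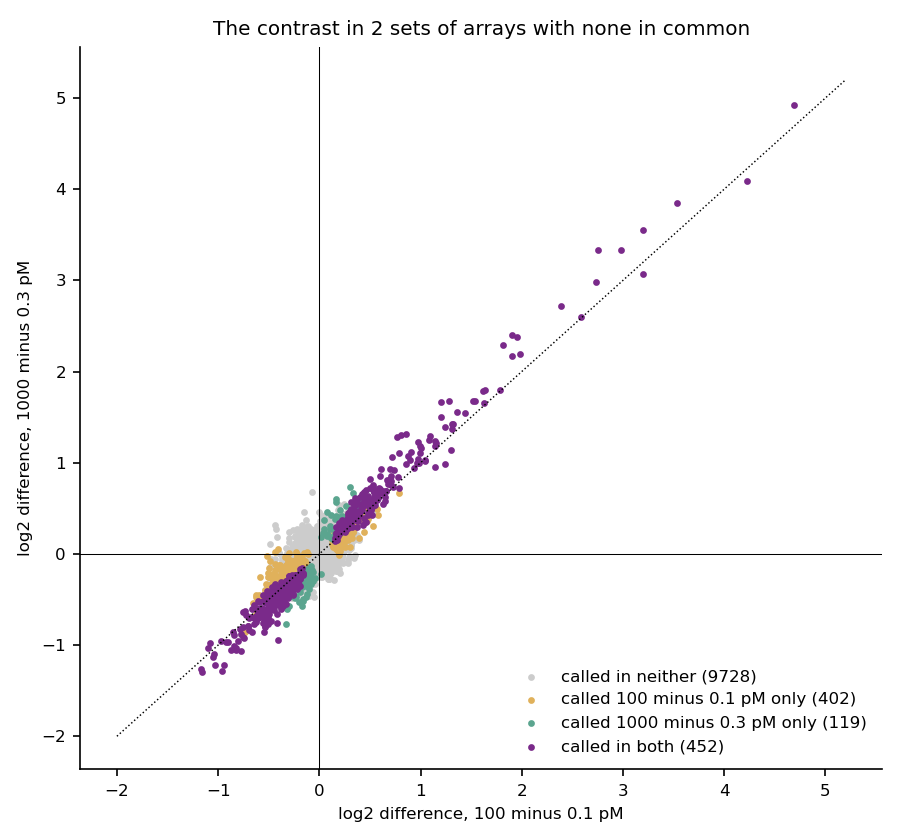
Each point is a gene; the x axis gives its log2 difference at 100 minus 0.1 pM and the y axis that at 1000 minus 0.3 pM, in arrays that do not overlap, with the dotted line at equality. The 452 genes called in both comparisons lie at the upper right and lower left, and the largest differences are rises.

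The 12 largest rises without overlap included the estrogen targets PGR and GREB1. PGR, the progesterone receptor, had a lowest, median and highest log2 level of 8.73, 8.89 and 9.37 in the high pool and of 3.42, 4.30 and 4.68 in the low pool. GREB1, a growth regulator known as an estrogen target in breast cancer cells, had 7.48, 7.68 and 7.89 in the high pool and 4.71, 5.21 and 5.38 in the low pool. Neither gene's pools overlapped, and the log2 differences were 4.81 (SE 0.12) and 2.56 (SE 0.07), with limma adjusted p-values of 3.18e-23 and 2.18e-22. Some low-pool arrays of PGR lay under the floor, so its 28.0-fold difference is uncertain in size. OLFM1, a secreted glycoprotein, was 4.14 higher on the log2 scale (SE 0.16) and the chloride channel ANO1 2.86 (SE 0.09). ANPEP was 3.05 higher (SE 0.12), uncertain in size because its low-pool mean of 3.90 lay under the floor. MLPH, a vesicle-transport adaptor of RAB27, was 2.58 higher (SE 0.09), GDPD5, a phosphodiesterase of glycerophosphocholine, 2.16 (SE 0.16) and the secretoglobin SCGB2A1 2.15 (SE 0.14). For 4 of the 12 largest rises no low array exceeded the floor, and only a bound can be given. DHRS3, which reduces retinal, was at least 7.86-fold higher in the high pool. ALPG, a phosphatase of the cell surface, was at least 7.57-fold higher there. The bounds were at least 2.83-fold for EGR3, an early growth response factor, and at least 2.37-fold for NPPC, the precursor of C-type natriuretic peptide. ESR1 itself, the receptor, averaged 8.25 ± 0.08 in the high pool and 8.23 ± 0.06 in the low pool (SD, n = 12 and 13) and was not called (limma adjusted p = 0.673).

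Of 21 measured genes on a list of estrogen-responsive genes, 13 were called higher and 1 lower, and the median log2 difference was 0.51, beside -0.02 over all genes tested. EGR3, 1 of the 13, was measured through the high pool alone. The list was assembled for genes that estrogen is known to induce, and its direction is no independent evidence. NRIP1, a corepressor that ESR1 recruits, had 8.86, 9.01 and 9.20 (lowest, median, highest) in the high pool and 6.99, 7.56 and 7.79 in the low pool, a difference of 1.49 (SE 0.06). TGFA, which activates EGFR, rose by 1.03 (SE 0.06) and the carbonic anhydrase CA12 by 0.99 (SE 0.08). At the small end STC2, a secreted glycoprotein, rose by 0.20 (SE 0.04, limma adjusted p = 2.44e-04). The exception was AGR2, a disulfide isomerase of the secretory pathway that estrogen induces in breast cancer cells, which fell by 0.50 (SE 0.07) in Ishikawa cells. Members that did not pass included CTSD at -0.34, CCND1 at -0.18 and XBP1 at -0.08. With the 2 arrays of high 3' bias left out, 14 members were higher and 4 lower, with CTSD (-0.31), CCND1 (-0.18) and XBP1 (-0.09) joining AGR2 among the lower.

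The 12 largest falls without overlap included genes of junctions, the cytoskeleton and AP-1. CLDN1, a claudin of tight junctions, had 8.50, 8.94 and 9.16 in the high pool and 9.64, 9.84 and 10.0 in the low pool. TAGLN, an actin-binding protein, had 6.82, 7.22 and 7.44 in the high pool and 7.79, 8.19 and 8.39 in the low pool. JUN, a subunit of AP-1, had 6.00, 6.30 and 6.58 in the high pool and 7.00, 7.10 and 7.41 in the low pool. In each of these genes every high-pool array lay below every low-pool array. The log2 differences were -0.93 (SE 0.05) for CLDN1, -0.96 (SE 0.07) for TAGLN and -0.84 (SE 0.06) for JUN, with limma adjusted p-values of 3.90e-15, 5.58e-12 and 7.11e-13. P3H2, a prolyl hydroxylase of collagen, decreased by 0.93 and SIGLEC15, a sialic acid-binding lectin, by 0.92, and LYPD6B, of the Ly6 family, differed by -0.87. The high-pool means of KRT80, CGNL1, SMIM5 and BLACAT1 were 4.01, 3.97, 3.75 and 3.76, near or under the floor, so their differences of -1.23, -1.09, -1.08 and -0.92 are uncertain in size. The netrin NTNG1, with a high-pool mean of 4.18, is uncertain likewise at -1.03. The adhesion molecule L1CAM lay under the floor on every high array and was at least 1.39-fold lower there.

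**Figure D2:**
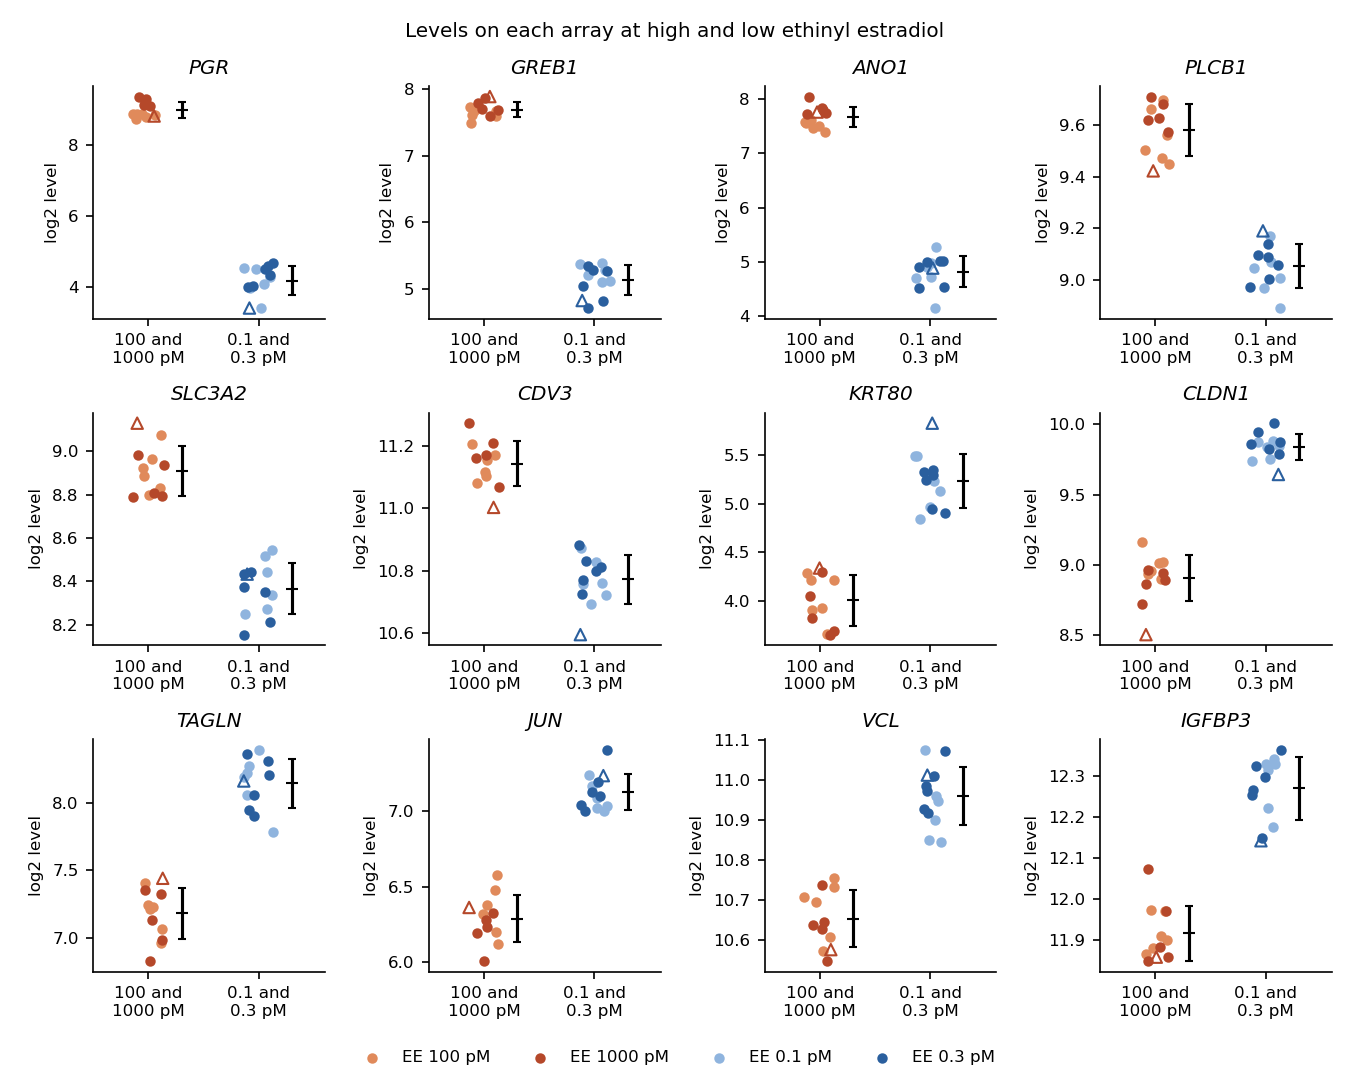
Log2 level (y axis) of 12 genes on every array, with 100 and 1000 pM on the left of each panel and 0.1 and 0.3 pM on the right; bars give the mean ± SD of a pool and open triangles are the 2 arrays of high 3' bias. No gene shown has overlapping pools, whether its fold is 28.0 (PGR) or 1.24 (VCL).

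Changes under 1.5-fold were also resolved array by array. Among genes with some array above the floor in each pool, 30 rises and 62 falls of that size had no overlap between pools. PLCB1, a phospholipase C of G-protein signalling, had 9.42, 9.60 and 9.71 in the high pool and 8.89, 9.06 and 9.19 in the low pool, a 1.44-fold rise. SLC3A2, the heavy chain of amino acid transporters, had 8.79, 8.90 and 9.13 in the high pool and 8.15, 8.37 and 8.54 in the low pool, a 1.46-fold rise. CDV3 rose 1.29-fold, TMX4, a thioredoxin-related membrane protein, 1.42-fold, NCOA4, a coactivator and ferritin receptor, 1.36-fold, and CEBPD, a transcription factor of the C/EBP family, 1.48-fold. The helix-loop-helix inhibitor ID4 and GSAP, an activator of gamma-secretase, each rose by 0.58 on the log2 scale. The small falls included several genes that anchor or stiffen the cytoskeleton. VCL, vinculin of focal adhesions, had 10.5, 10.6 and 10.8 in the high pool and 10.8, 11.0 and 11.1 in the low pool, a 1.24-fold fall (limma adjusted p = 3.36e-09). TPM1, a tropomyosin, fell 1.29-fold, the LIM protein AJUBA 1.34-fold and the annexin partner S100A10 1.36-fold, and the keratin KRT7 differed by -0.58 on the log2 scale. IGFBP3, which binds insulin-like growth factors, fell 1.28-fold, the chromatin protein HMGA2 1.39-fold and MEGF9, a membrane protein with EGF-like domains, 1.36-fold. Of 5 probe sets for HMGA2 only the one used was called, and the others differed by -0.20, -0.19, -0.17 and 0.02 on the log2 scale. Of the 325 genes checked here and below for other probe sets, 154 had more than 1 and none had a probe set called in the opposite direction.

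Lists of genes by function follow, each set against the 6.14% of all genes called higher and 9.07% called lower. No test was run on a list. The lists were written with earlier results of these data known, so an excess over those shares is no independent evidence.

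Genes that SRF, a transcription factor of the actin cytoskeleton, and contractile programmes draw on were called in the downward direction alone. Of 18 measured, 11 were called lower and 0 higher, the median difference was -0.22, and 17 of 18 lay below 0; without the 2 arrays 12 were called lower. ACTA2, smooth muscle alpha-actin, had 6.98, 7.57 and 7.97 in the high pool and 7.93, 8.33 and 8.81 in the low pool, so that the pools touched at their edges, with a difference of -0.83 (SE 0.11). MYL9, a myosin light chain, decreased by 0.61 (SE 0.13), the calponin CNN2 by 0.39 (SE 0.09) and the non-muscle myosin MYH9 by 0.23 (SE 0.04). ACTN4, an actinin of actin bundles, decreased by 0.26 (SE 0.08). CNN3 at -0.23, SRF itself at -0.16 and FHL2 at 0.07 were not called. TAGLN and ACTA2 are also markers of smooth muscle. The log2 levels of the 8 smooth muscle markers added up to 31.9 to 34.5 in the high pool and 35.0 to 37.5 in the low pool. Of these markers 3 (DES, SYNPO2 and LMOD1) were at or under the floor on every array. Only 3 of the 8 were measured, with a mean difference of -0.57, and 2 of those were called lower. The sum therefore also holds dim levels not read as measured. In RNA of whole cultures, fewer cells of a type and less RNA per cell cannot be told apart.

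Targets of the YAP coactivator and its DNA-binding TEAD partners, which respond to cell shape and tension, ran the same way. Of 13 measured, 7 were called lower and 0 higher, all 13 lay below 0, and the median was -0.16; without the 2 arrays 7 were called lower. CCN2, connective tissue growth factor, had 6.48, 6.79 and 7.45 in the high pool and 7.05, 8.14 and 8.43 in the low pool. Its pools overlapped at their edges, and the difference was -1.21 (SE 0.12, limma adjusted p = 2.12e-09). CCN1, a related matrix protein, had 8.27, 8.90 and 9.25 in the high pool and 9.30, 9.61 and 10.1 in the low pool, without overlap, a difference of -0.78 (SE 0.09). TEAD1 decreased by 0.43 (SE 0.06), AJUBA by 0.43 (SE 0.04), the kinase LATS2 by 0.32 (SE 0.06), the ferlin MYOF by 0.18 (SE 0.06) and the phosphatase PTPN14 by 0.16 (SE 0.05). F3 at -0.13, AMOTL1 at -0.12 and AMOTL2 at -0.03 did not pass.

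The promoters of CCN2 and CNN2 are printed because each holds the motif of its list's factor, as RefSeq gives them on GRCh38.p14. The window is the 250 bases before the annotated start, 5' to 3' on the gene's strand, at chr6:131951373-131951622 on the minus strand for CCN2 and chr19:1026358-1026607 on the plus strand for CNN2. Capitals mark matches, searched on both strands: GGAATG, which TEAD factors bind, in CCN2, and the CArG box, which SRF binds, in CNN2.
CCN2 promoter: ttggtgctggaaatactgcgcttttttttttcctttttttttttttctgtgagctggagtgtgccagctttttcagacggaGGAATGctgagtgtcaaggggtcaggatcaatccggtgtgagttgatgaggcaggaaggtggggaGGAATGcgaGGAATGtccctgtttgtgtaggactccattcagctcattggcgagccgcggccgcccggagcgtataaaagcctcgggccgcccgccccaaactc
CNN2 promoter: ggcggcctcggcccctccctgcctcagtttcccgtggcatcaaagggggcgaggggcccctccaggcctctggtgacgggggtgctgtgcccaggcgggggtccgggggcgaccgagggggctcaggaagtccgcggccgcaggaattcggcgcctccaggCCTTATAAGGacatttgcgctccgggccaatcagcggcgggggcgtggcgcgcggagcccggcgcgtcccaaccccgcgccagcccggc
In CCN2 the 3 matches begin 169, 104 and 95 bases before the start, and in CNN2 the single match begins 89 bases before it. GGAATG was present in 11.9% of all 27305 promoters of this length and in 2 of 8 promoters found for measured YAP and TEAD targets (CCN2 and PTPN14). The CArG box was present in 1.14% of all promoters and in 4 of 16 promoters of measured SRF and contractile genes (CNN2, FHL2, SRF and TPM4). FHL2 and SRF were not called. Both lists were assembled for genes tied to these factors, so their motif shares are no independent evidence. Of the called genes with a promoter, GGAATG was in 7.13% of those higher and 11.1% of those lower, and the CArG box in 1.31% and 1.64%. Promoters of all tested genes held them in 9.11% and 1.00% of cases. A match describes letters in this window and not a bound site.

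Of 34 measured collagens, basement membrane proteins and matrix enzymes, 18 were called lower and 3 higher, 30 of 34 lay below 0 and the median was -0.23; without the 2 arrays 22 were lower and 3 higher. FN1, fibronectin, had 6.75, 7.09 and 7.54 in the high pool and 7.32, 7.49 and 7.88 in the low pool, with overlap, a difference of -0.43 (SE 0.07). Falls among basement membrane components were small: COL4A1 decreased by 0.30 (SE 0.08), COL4A2 by 0.32 (SE 0.07), NID1 by 0.37 (SE 0.10), NID2 by 0.36 (SE 0.06), the perlecan gene HSPG2 by 0.44 (SE 0.07) and the agrin gene AGRN by 0.25 (SE 0.07). The fibrillar collagens did not move as one. COL1A1, the alpha-1 chain of type I collagen, decreased by 0.56 (SE 0.09) and COL3A1 by 0.50 (SE 0.13), whereas COL1A2, the alpha-2 chain of type I, had 7.98, 8.50 and 8.77 in the high pool and 7.04, 7.43 and 7.81 in the low pool, a rise of 1.01 (SE 0.09). Those pools did not overlap. COL9A3, a chain of type IX collagen, rose 2.14-fold and COL6A1, a chain of type VI, by 0.47 (SE 0.06), and MMP14 at -0.26, COL18A1 at -0.25 and LOX at -0.19 were not called. The inhibitors of metalloproteinases TIMP1 and TIMP2 decreased by 0.29 (SE 0.08) and 0.38 (SE 0.08).

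Receptors and ligands of the basement membrane were mixed. Of 16 measured integrins and laminins, 7 were called lower and 2 higher (10 and 3 without the 2 arrays), with a median of -0.18. ITGA6, the laminin-binding integrin alpha-6, had 9.03, 9.42 and 9.57 in the high pool and 8.05, 8.16 and 8.50 in the low pool, without overlap, a rise of 1.18 (SE 0.06). LAMB3, a chain of laminin-332, rose by 0.89 (SE 0.14) with overlapping pools. ITGB3 decreased by 0.67 (SE 0.09) and ITGB6 by 0.64 (SE 0.09), and their partner ITGAV by 0.18 (SE 0.04). The laminin chains LAMA5 and LAMC1 decreased by 0.35 (SE 0.08) and 0.25 (SE 0.04), and ITGB4, the partner of ITGA6, was not called at -0.21 (limma adjusted p = 0.171).

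Of 33 measured epithelial junction genes, 10 were called lower and 0 higher with and without the 2 arrays, 11 lay above 0, and the median was -0.06. With the beta-actin difference as a covariate 14 were lower and 2 higher. Apart from CLDN1 and CGNL1, the falls were of JUP, plakoglobin, by 0.53 (SE 0.08), of CDH3, P-cadherin, by 0.43 (SE 0.08), of the epithelial splicing factor ESRP2 by 0.33 (SE 0.05) and of OVOL1, an epithelial transcription factor, by 0.28 (SE 0.08). CDH1, E-cadherin, fell by 0.12 (SE 0.03) and CTNNA1, its alpha-catenin, by 0.11 (SE 0.02), both called because the spread was small. LSR at -0.17, CLDN3 at 0.15 and CLDN7 at -0.12 did not pass. Of 11 keratins and plakins measured, 5 were lower and 0 higher with all arrays and without the 2. KRT19 decreased by 0.25 (SE 0.06) and KRT18 by 0.12 (SE 0.03), while KRT8, the partner of KRT18, was at 0.00 and not called (limma adjusted p = 0.990). The periplakin gene PPL decreased by 0.44 (SE 0.08).

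**Figure D3:**
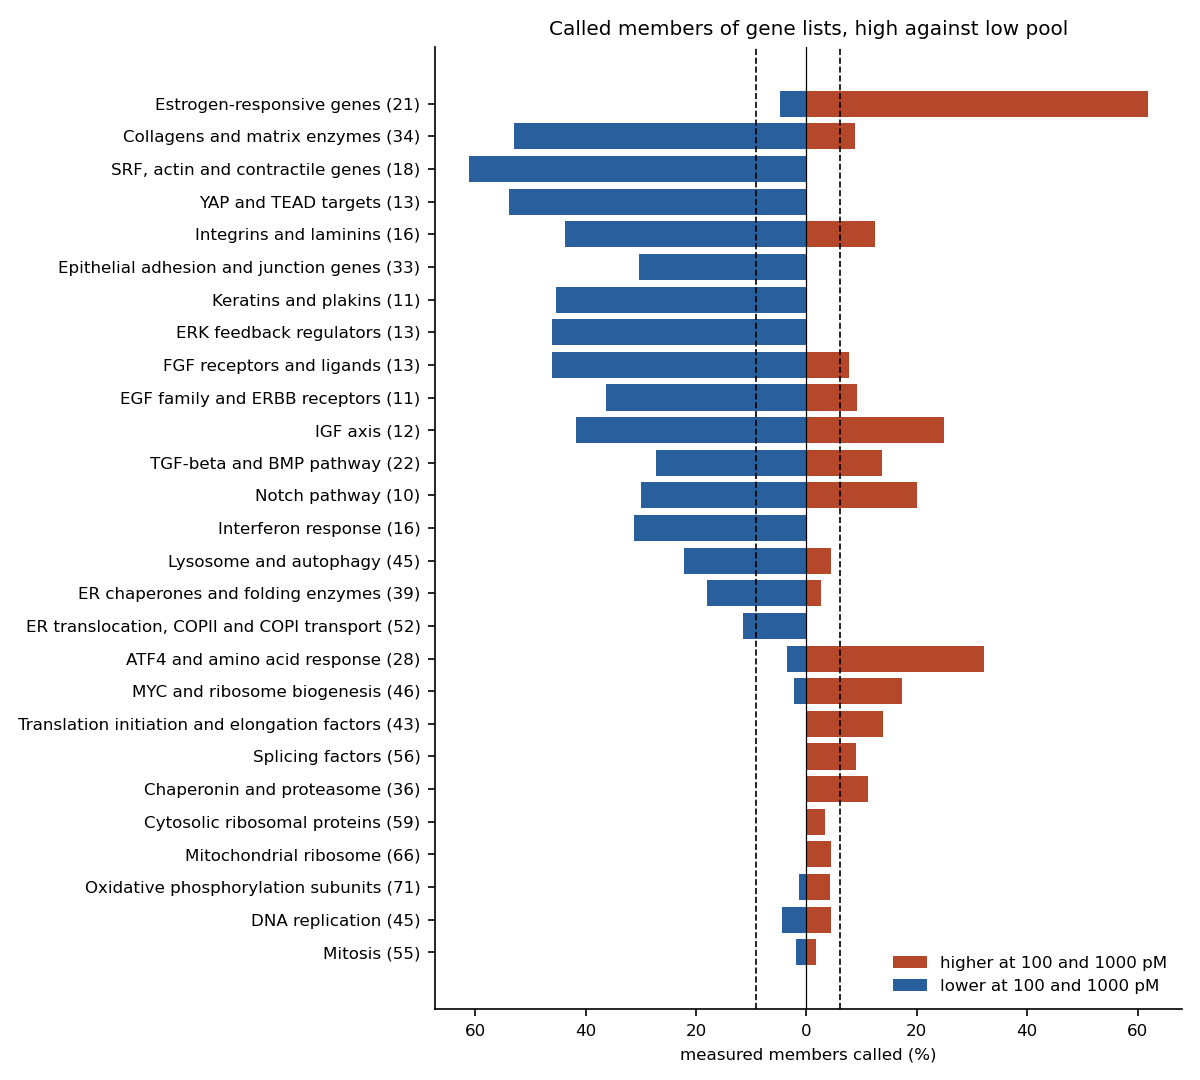
Share of measured members called higher (right, red) or lower (left, blue) in the high pool for 27 gene lists (x axis, %), with the number measured in brackets and dashed lines at the 6.14% and 9.07% of all genes. Matrix, contractile, YAP and ERK lists extend to the left, and the ATF4, ribosome biogenesis and translation lists to the right.

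Transcripts of growth factor ligands, receptors and adaptors were called in both directions, and signalling itself was not measured. Among ligands, TGFA rose by 1.03, as given above, whereas NRG1, neuregulin, had 6.17, 6.37 and 6.54 in the high pool and 6.81, 7.01 and 7.24 in the low pool, a difference of -0.66 (SE 0.05). FGF18 decreased by 0.48 (SE 0.05), TGFB2 by 0.57 (SE 0.07) and TGFB3 by 0.35 (SE 0.09). Among receptors, EGFR decreased by 0.36 (SE 0.08) and FGFR2 by 0.75 (SE 0.10), while FGFR1 rose by 0.30 (SE 0.05) and IGF1R by 0.28 (SE 0.07). ERBB2 at -0.26 and ERBB3 at 0.01 were not called. The sheddases ADAM10 and ADAM17, which release EGF-family ligands, decreased by 0.33 (SE 0.03) and 0.16 (SE 0.04). Of the IGF-binding proteins, IGFBP5 decreased by 0.70 (SE 0.06), IGFBP6 by 0.33 (SE 0.07) and IGFBP7 by 0.28 (SE 0.06), besides IGFBP3, and IGFBP2 was not called at -0.09. The adaptor IRS2, downstream of the insulin and IGF1 receptors, decreased by 0.53 (SE 0.09), and the adaptors GRB14 and GRB10 rose by 0.42 (SE 0.09) and 0.12 (SE 0.04).

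Counted by list, 5 of 12 IGF genes were lower and 3 higher, 4 of 11 EGF-family genes lower and 1 higher, and 6 of 13 FGF genes lower and 1 higher. In the TGF-beta and BMP list 6 of 22 were lower and 3 higher. Its rises included THBS1, thrombospondin-1, an activator of latent TGF-beta, which had 10.3, 10.7 and 10.8 in the high pool and 9.01, 9.21 and 9.52 in the low pool (1.37 higher, SE 0.06). Its falls included the inhibitory SMADs, SMAD6 by 0.45 (SE 0.06) and SMAD7 by 0.23 (SE 0.05), and ID1 by 0.27 (SE 0.08). Without the 2 arrays these lists had 5, 5, 7 and 8 genes lower and 3, 1, 2 and 3 higher.

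Genes that are switched on by ERK and feed back on it were likewise called lower and not higher. Of 13 measured, 6 were called lower (7 without the 2 arrays) and 0 higher, and the median was -0.24. SPRY1, a Sprouty inhibitor, had 8.01, 8.33 and 8.53 in the high pool and 8.57, 8.80 and 8.94 in the low pool, without overlap, a difference of -0.47 (SE 0.05). ETV5 decreased by 0.58 (SE 0.08) and ETV4 by 0.36 (SE 0.08), both ETS factors downstream of FGF signalling, and IL17RD, an inhibitor of FGF receptors, differed by -0.55 (SE 0.06). ETV4 lay near the floor, with a high-pool mean of 3.85, so its size is uncertain. The phosphatases DUSP6 at 0.06 and DUSP1 at -0.02 were not called. Immediate early genes were split, with 5 of 14 lower and 4 higher, EGR3 being 1 of the 4 (6 and 5 without the 2 arrays). Beside JUN, IER2 decreased by 0.69 (SE 0.08) and JUNB by 0.39 (SE 0.07), while the AP-1 subunit FOSL2 rose by 0.92 (SE 0.09) and KLF10 by 0.25 (SE 0.04).

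In the Notch pathway a ligand and a target fell. JAG1, the ligand, had 9.02, 9.28 and 9.40 in the high pool and 9.79, 9.90 and 10.0 in the low pool (-0.65, SE 0.04). HES1, a transcriptional repressor and Notch target, had 8.49, 8.67 and 8.88 in the high pool and 9.10, 9.25 and 9.55 in the low pool (-0.59, SE 0.04). Neither gene's pools overlapped. The target NRARP decreased by 0.31 (SE 0.07), whereas HES2 rose by 1.71 (SE 0.07) and LFNG, a glycosyltransferase that modifies Notch, by 0.73 (SE 0.10) from a low-pool mean of 3.67, under the floor. The receptor NOTCH2 at -0.07 was not called. Of 10 genes measured, 3 were lower and 2 higher (3 and 3 without the 2 arrays). In the Wnt list 4 of 22 were higher and 1 lower with and without the 2 arrays, though 15 of 22 lay below 0 and the median was -0.05. The rises included the transcription factor LEF1 at 0.58 (SE 0.07) and LGR4, the R-spondin receptor, at 0.31 (SE 0.06).

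**Figure D4:**
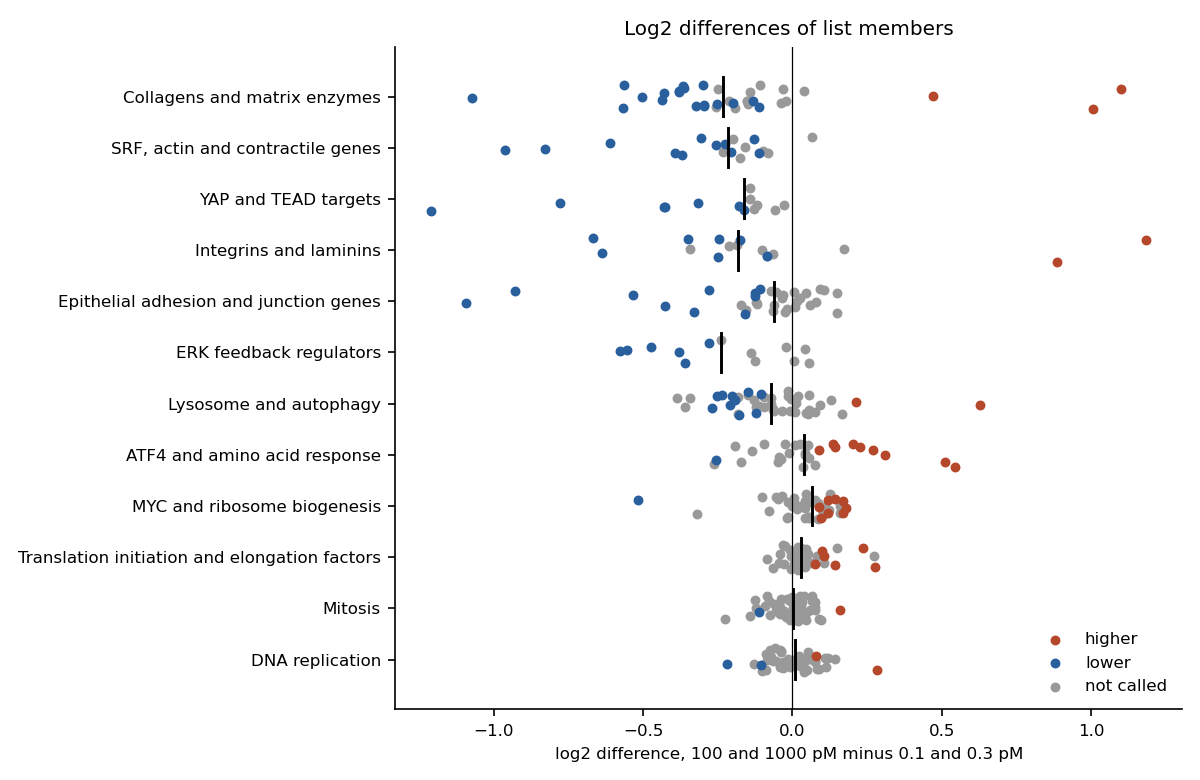
Log2 difference, high minus low pool (x axis), of each measured member of 12 lists; red and blue points were called, grey were not, and black bars are medians. The contractile, matrix, YAP and ERK lists have medians from -0.24 to -0.16, and the mitosis and DNA replication lists centre near 0.

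Genes of amino acid supply rose more often than they fell. Of 28 measured targets of ATF4, the transcription factor of amino acid shortage, 9 were called higher and 1 lower, and the median was 0.04. Without the 2 arrays 9 were higher and 4 lower. SLC7A5, the light chain that pairs with SLC3A2 to import leucine, had 10.4, 10.6 and 11.1 in the high pool and 9.79, 9.99 and 10.6 in the low pool, with overlap, a rise of 0.51 (SE 0.08). SLC7A11, the cystine light chain, rose by 0.31 (SE 0.06), CEBPB by 0.27 (SE 0.05), CTH, cystathionine gamma-lyase, by 0.23 (SE 0.07) and ASNS, asparagine synthetase, by 0.14 (SE 0.03, limma adjusted p = 0.00295). The exception was DDIT4, an inhibitor of mTORC1, which fell by 0.26 (SE 0.04). DDIT3 at -0.13, CHAC1 at 0.08 and PSAT1 at 0.05, 3 genes that ATF4 activates under stress, did not pass.

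The ASNS promoter is shown because it holds the C/EBP-ATF element of ATF4 targets, TGATGNAA, and that of PGR because it led all rises. Both windows are the 250 bases before the RefSeq start on GRCh38.p14, on the minus strand, at chr7:97872409-97872658 for ASNS and chr11:101129078-101129327 for PGR. Capitals mark TGATGNAA in ASNS and TGACC, 1 arm of the estrogen response element, in PGR.
ASNS promoter: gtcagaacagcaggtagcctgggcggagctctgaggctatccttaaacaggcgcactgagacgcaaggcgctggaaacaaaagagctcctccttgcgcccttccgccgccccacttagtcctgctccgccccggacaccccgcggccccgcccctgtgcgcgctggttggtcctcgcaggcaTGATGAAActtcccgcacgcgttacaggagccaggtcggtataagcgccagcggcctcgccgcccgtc
PGR promoter: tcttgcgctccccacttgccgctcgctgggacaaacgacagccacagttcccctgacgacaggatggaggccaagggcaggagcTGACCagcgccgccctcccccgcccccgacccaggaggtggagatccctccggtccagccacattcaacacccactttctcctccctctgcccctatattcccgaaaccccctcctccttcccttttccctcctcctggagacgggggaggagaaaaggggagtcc
The ASNS match begins 68 bases and the PGR match 166 bases before the start. TGATGNAA was present in 3.19% of all promoters, in 1.32% of those of tested genes and in 2 of 22 promoters of measured ATF4 targets (ASNS and CHAC1). CHAC1 was not called, and a list assembled for ATF4 targets gives no independent evidence on its motif. TGACC, found in 33.1% of all promoters and 29.6% of those of tested genes, was in 26.6% of promoters of genes called higher and 29.6% of genes called lower. The full element, GGTCA and TGACC with 3 bases between them, holds TGACC and was in 12 of 27305 promoters and in 0 of 533 called higher and 0 of 793 called lower. The AP-1 element TGANTCA was in 6.60% of all promoters and 3.33% of those of tested genes, in 3.38% of those of genes called higher and in 3.40% of those called lower. Such counts describe only this window and say nothing of sites elsewhere.

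Ribosome biogenesis genes were called higher more often than lower, by small amounts. Of 46 measured genes of MYC and ribosome biogenesis, 8 were called higher and 1 lower, 35 lay above 0, and the median was 0.07 beside -0.02 over all genes; without the 2 arrays 9 were higher and 2 lower. NOP56, a core protein of box C/D particles, had 10.4, 10.5 and 10.7 in the high pool and 10.2, 10.4 and 10.5 in the low pool, a rise of 0.17 (SE 0.04). FBL, the methyltransferase fibrillarin, rose by 0.12 (SE 0.03), as did MRTO4 (SE 0.03), a ribosome assembly factor, and GAR1, a protein of box H/ACA particles, rose by 0.10 (SE 0.03). The pools of these genes overlapped. The member that fell was MYCN, a MYC-family factor, by 0.52 (SE 0.07), while MYC itself was at 0.16 and not called (limma adjusted p = 0.0745).

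Of 43 measured translation factors 6 were higher and 0 lower (7 and 0 without the 2 arrays), among them EIF1AX at 0.28 (SE 0.06) and EIF2S1 at 0.10 (SE 0.03), both parts of the initiation machinery. Splicing factors had 5 of 56 higher and 0 lower, led by SRSF11 at 0.16 (SE 0.04), and chaperonin and proteasome genes 4 of 36 higher and 0 lower, led by CCT6A at 0.15 (SE 0.04). In the fit that leaves out the 2 arrays, 6 splicing and 7 chaperonin and proteasome genes were higher and 0 lower. The splicing share was near the 6.14% background for rises. Cytosolic ribosomal proteins (2 of 59 higher, 0 lower), the mitochondrial ribosome (3 of 66 higher, 0 lower) and oxidative phosphorylation (3 of 71 higher, 1 lower) lay below it. NDUFA11, a subunit of complex I, was the largest of these at 0.45 (SE 0.05), and RPL5, a protein of the large ribosomal subunit, rose by 0.08 (SE 0.02).

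Genes of mitosis, DNA replication and DNA repair were called less often than all genes in the fit of 25 arrays. In either direction 3.64%, 8.89% and 4.88% of them were called, against 15.2% of all genes. Of 55 mitosis genes 1 was higher and 1 lower, of 45 DNA replication genes 2 and 2, and of 41 DNA repair genes 1 and 1. Leaving out the 2 arrays, 2 mitosis genes were higher and 4 lower, 5 replication genes higher and 5 lower, and repair again 1 and 1. In that fit 9.04% of all genes were called higher and 12.6% lower. MKI67, the proliferation antigen, averaged 9.28 ± 0.17 in the high pool and 9.27 ± 0.11 in the low pool, and TOP2A, the replication-linked topoisomerase, 11.3 ± 0.15 and 11.3 ± 0.08 (SD, n = 12 and 13). Neither was called (limma adjusted p = 0.925 and 0.942), with differences of 0.01 (SE 0.05) and 0.01 (SE 0.04). Shifts of the size of the SE, and also ones well beyond it, would not be called. Of 23 regulators of G1, 5 (21.7%) were called, beside 15.2% of all genes, a gap of few genes in so short a list. In this list 3 were higher and 2 lower (4 and 3 without the 2 arrays), and 18 were not called. CCND2, cyclin D2, rose by 0.65 (SE 0.08), CCNE2, cyclin E2, by 0.30 (SE 0.05) and the CDK inhibitor CDKN1A by 0.27 (SE 0.07). CDK6, a kinase partner of D cyclins, had 7.56, 7.77 and 7.93 in the high pool and 8.27, 8.37 and 8.49 in the low pool, without overlap, a difference of -0.61 (SE 0.04). CCND1, cyclin D1, was not called at -0.18 (limma adjusted p = 0.125), though it passed without the 2 arrays (adjusted p = 0.0240).

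Organelles of the secretory and degradative routes held small falls. Of 45 lysosome and autophagy genes 10 were lower and 2 higher with a median of -0.07, and 17 were lower and 4 higher without the 2 arrays. NEU1, a sialidase, had 7.43, 7.52 and 7.73 in the high pool and 7.63, 7.81 and 7.91 in the low pool, a difference of -0.27 (SE 0.04). The cathepsins CTSB, CTSH, CTSZ, CTSA and CTSL decreased by 0.24 (SE 0.05), 0.25 (SE 0.07), 0.21 (SE 0.05), 0.20 (SE 0.06) and 0.18 (SE 0.04), while CTSD was not called at -0.34. The autophagy kinase ULK1 rose by 0.63 (SE 0.11) and LAMP2, a lysosomal membrane protein, by 0.21 (SE 0.05). Of 39 genes of endoplasmic reticulum folding 7 were lower and 1 higher (10 and 1 without the 2 arrays), with P4HB, a disulfide isomerase, at -0.19 (SE 0.07) and DNAJC3, a co-chaperone, at -0.15 (SE 0.03). Transport between that organelle and the Golgi had 6 of 52 lower and 0 higher, close to the background for falls, and 12 and 3 without the 2 arrays; KDELR3, a retrieval receptor, was at -0.18 (SE 0.04).

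Among immune-related genes falls alone were called. Of 16 interferon-response genes 5 were lower and 0 higher, and 15 lay below 0. IFITM2, a restriction factor of viral entry, had 8.13, 8.41 and 8.58 in the high pool and 8.62, 8.77 and 9.02 in the low pool, a difference of -0.37 (SE 0.05), and ISG15, a ubiquitin-like modifier, fell by 0.36 (SE 0.07). B2M at -0.13 and IFIT1 at -0.12 did not pass. Of 14 NF-kB and cytokine genes 4 were lower and 0 higher, led by TNFAIP2 at -0.86 (SE 0.15) and TNFRSF12A, the TWEAK receptor, at -0.61 (SE 0.04). Without the 2 arrays 6 genes of each list were lower and 0 higher.

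The same genes were followed at the concentrations that the contrast does not use. A gene's position was expressed as the percentage of its log2 difference reached, with the low-pool mean at 0 and the high-pool mean at 100. The rises considered were the 90 genes without overlap and with some array above the floor in each pool. Their median position was 8.48% at 1 pM, 20.3% at 3 pM and 41.7% at 10 pM. For the 96 genes that fell, it was 11.0%, 22.8% and 47.3% at the same concentrations. At 1, 3 and 10 pM the means of 72, 88 and 90 of the 90 rising genes and of 85, 95 and 96 of the 96 falling genes lay between the pool means. The 3 pM array of replicate 6 had a beta-actin 3' minus 5' difference of 2.75, and without it, an alternative chosen after seeing the data, the 3 pM medians were 23.3% for rises and 19.1% for falls. Rises and falls lay close to each other at each concentration, and their difference was not tested. Single genes departed from the median. At 1, 3 and 10 pM OLFM1 stood at 15.9%, 40.7% and 68.2% and PGR at 8.93%, 30.0% and 57.3%. CLDN1 stood at 12.7%, 22.8% and 35.3% and SIGLEC15 at 9.74%, 13.8% and 28.1%. NCOA4 stood at 1.05%, 8.02% and 26.1% and CEBPD at 11.7%, 5.15% and 23.7%. At 1 pM JUN at -2.94%, GSAP at -3.87% and GDPD5 at -2.42% lay outside the pool means. The positions within the pools were 94.1% at 100 pM and 106% at 1000 pM for rises, and 95.3% and 105% for falls.

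**Figure D5:**
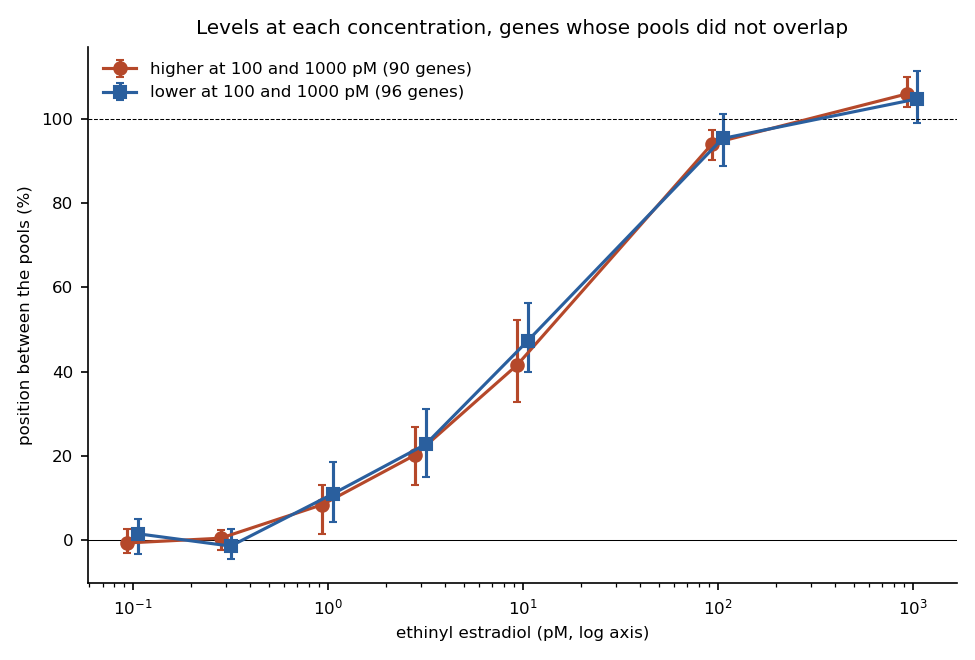
Median position between the low-pool mean (0%) and the high-pool mean (100%) of genes whose pools did not overlap (y axis) at each EE concentration (x axis, log scale), with bars from the lower to the upper quartile of genes. Rises (circles, 90 genes) and falls (squares, 96 genes) pass 41.7% and 47.3% at 10 pM; the points at 0.1, 0.3, 100 and 1000 pM come from the arrays that define the scale.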

How the data were processed

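RNA from Ishikawa cells was labelled from the 3' end and hybridized to Affymetrix arrays, per the protocols in the labels. The deposited log2 values were used as the authors gave them; per the submitters' processing notes GCRMA and Partek were used; versions are not given in the sources used here. GCRMA compresses dim signals toward a floor, so differences of dim genes are uncertain. The table held 54715 probe sets on 49 arrays; the platform annotation gave 40920 a unique symbol, 864 more than 1 and 12931 none, and 40864 of those with a unique symbol were found in RefSeq of GRCh38.p14 by Entrez identifier. The number of arrays limits the precision.

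A probe set entered if it exceeded log2 4 on at least 12 of the 25 arrays (21432 did, 18803 with 1 symbol), and the one with the highest mean stood for its gene, leaving 10701 genes. No arrays were identical. Pools were compared with limma 3.58.1 under R 4.3.3 (intensity trend on, with statmod 1.5.0 where needed) and Benjamini-Hochberg adjustment over all genes at 0.05. The differences are log2 levels of the 100 and 1000 pM arrays minus those of the 0.1 and 0.3 pM arrays, each with its standard error from the fit. Where every array of a pool lay at or under 4 (9 genes), only a bound on the fold is given, from pool means with the dim pool set to 4.

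Of 1835 genes on 62 lists, 1718 were on the array and 1494 were measured; 341 were not, and 3 measured members (ALPG, DHRS3 and EGR3) entered through the high pool alone. The comparisons, lists and genes were chosen with earlier results of these data known. Named genes were, among those called whose pools did not overlap, the 12 largest rises and falls, the 8 rises and 8 falls of smallest adjusted p under 1.5-fold, ESR1, PGR and GREB1. Up to 6 called members of a list in each direction were named by size. Further called members, those not called and single genes such as MKI67 and TOP2A are examples chosen after their values were seen. Promoters were found for 8918 of the tested genes.

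The fit was tested on simulated data with known changes. Alternatives changed the arrays, filter, prior, normalization, weights, probe sets, threshold and the use of the replicate number. Figures were drawn with Python 3.11.15, pandas 2.3.3 and matplotlib 3.10.9.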

Additional observations from a re-analysis of the deposited data

Results flagged for a closer look

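Within each concentration of 6 or 7 arrays, 13 of 176 sets of values had an array farther from the others than chance leaves in about 1 set of 20. The 12 sets of array quality gave 7 of them. The beta-actin 3' minus 5' log2 difference was 3.26 in 0.3 pM replicate 2, and the GAPDH difference was 0.73 there and 0.40 in 1000 pM replicate 6. The SD of genes around the group mean was 0.396 in 0.3 pM replicate 2, 0.284 in 1000 pM replicate 6 and 0.162 in 100 pM replicate 5. The GAPDH difference of 0.1 pM replicate 1 was 0.0466, the highest of its group.

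The 164 sets of gene levels gave the other 6, of which 3 lay on the 2 arrays of high 3' bias. Those were ANPEP at 8.02 and HMGA2 at 8.50 in 1000 pM replicate 6 and CGNL1 at 5.64 in 0.3 pM replicate 2. NCOA4 at 11.2 and SMIM5 at 4.30 stood apart in 100 pM replicate 5, and ANO1 at 8.05 in 1000 pM replicate 2. Without the 2 arrays ANPEP differed by 2.98, HMGA2 by -0.45 and CGNL1 by -1.05 on the log2 scale, and all 3 were still called.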

How the results depend on the processing

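The count of 1628 genes was 1719 with the replicate block, 1541 from means of the 4 groups, 1383 in a fit of all 49 arrays, 1605 after quantile normalization, 1613 with no intensity trend and 1567 from the mean of probe sets. It was 1553 with no filter and 1312 above log2 6, where 19774 and 7854 genes were tested. It moved by more than 1.5 times to 2835 with the actin difference as a covariate, to 2707 with array weights and to 1013 at an adjusted p under 0.01. The comparison of 1000 with 0.3 pM gave 571 genes, 1026 without the 2 arrays of high 3' bias and 343 with the replicate block; the cause was not tested. That of 100 with 0.1 pM gave 1056 with the block. Replicate numbers were not taken to pair the arrays, since same-numbered arrays correlated by -0.47 to 0.52 over 36 pairs of the 4 groups, 14 of them over 0.1, and 9 matched their own number best. Between 100 and 1000 pM replicates 3 to 6 correlated by 0.31 to 0.52 and each matched its own number best, a hint from the data and not the design, while replicates 1 and 2 did neither. The count of 0 between 1000 and 100 pM, between 0.3 and 0.1 pM and between the low pool and vehicle held in the alternatives run for each, including one without vehicle replicate 5 chosen after seeing the data.

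Of 324 called genes that are list members or named, 240 were called under every setting tried and 321 without the 2 arrays, and none turned direction. Of 60 lists, 15 changed their count of called members by more than 1.5 times without the 2 arrays and 3 with the replicate block. ACTN4, named above, was not called with the block.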

Other observations

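Several smaller groups also held called members, where 15.2% of all genes were called, 6.14% higher and 9.07% lower. In either direction 27.8% of the zinc list, 28.6% of the NRF2 list and 40.7% of the p53 list were called. The chromatin (14.3%), cholesterol (10.5%) and N-glycosylation (5.00%) lists lay below the share of all genes. Of 18 metallothionein and zinc transport genes 2 were higher and 3 lower, with the zinc exporter SLC30A1 rising by 0.54 (SE 0.06) and the metallothioneins MT2A and MT1F each falling by 0.38 (SE 0.04). Of 28 NRF2 and glutathione genes 6 were lower and 2 higher, and the aldo-keto reductases AKR1C1, AKR1C2 and AKR1C3, which act on steroids, fell by 0.37, 0.35 and 0.21 (SE 0.07, 0.07 and 0.04). These 3 genes are close paralogs whose probes can share signal. Of 49 chromatin regulators 6 were higher and 1 lower, led by RBBP7, a histone-binding subunit, at 0.67 (SE 0.04). Of 27 p53 targets 7 were lower and 4 higher: PLK2, a polo-like kinase, had 9.29, 9.39 and 9.63 (lowest, median, highest) in the high pool and 10.1, 10.2 and 10.4 in the low pool, a difference of -0.82 (SE 0.04), and PMAIP1, a BH3-only protein, rose by 0.55 (SE 0.09). Cholesterol synthesis had 1 of 19 higher and 1 lower, and N-glycosylation 1 of 40 higher and 1 lower. After leaving out the arrays of high 3' bias, the zinc list had 2 higher and 4 lower, the NRF2 list 5 and 6, the chromatin list 8 and 2 and the p53 list 4 and 8.

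DEPTOR, an inhibitor of mTOR, rose by 1.03 (SE 0.04) without overlap, with 9.96, 10.2 and 10.3 in the high pool and 9.03, 9.13 and 9.38 in the low pool. SOX17, a transcription factor of endometrial epithelium, rose by 0.73 (SE 0.05), whereas FOXA1, a pioneer factor of estrogen receptor binding in breast cells, fell by 0.36 (SE 0.07). CAPS, a calcium-binding protein of ciliated cells, rose by 1.64 (SE 0.05). In the ciliated list 1 of 18 genes was called higher and 2 lower, and CAPS was that 1. The share called in that list, 16.7%, was near the 15.2% of all genes. Of the reference genes commonly used to scale such data, 1 of 13 (7.69%) was called: ACTB fell by 0.13 (SE 0.04, limma adjusted p = 0.0298).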
